A study of Mus musculus with 2 samples.

Results

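The 8 genes described here, Pmp22, Mbp, Prx, Mag, Egr2, S100b, Ngfr and Gfra3, belong to the myelin and glia of peripheral nerve. They were listed by symbol, and all 8 were found among the 43346 genes of the tables. Poly(A) RNA had been sequenced from mammary gland of C57BL/6J mice, an inbred laboratory strain, at 8 weeks of age, with tissue of both sexes pooled. The labels name 2 biological replicates of this 1 group, give both the same donor identifier and state no contrast, no treatment and no reproductive state. The comparison is therefore between replicate 1 and replicate 2, and no p-value is given. Replicate 1 held 56323489 expected fragments over all genes and replicate 2 held 42400470.

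Peripheral axons are wrapped by Schwann cells, glial cells of neural crest origin. A myelinating Schwann cell surrounds 1 stretch of a single axon, whereas a non-myelinating Schwann cell embraces a bundle of thin axons. The transcription factor EGR2, also called KROX20, switches on the genes of the myelin sheath together with SOX10. PMP22 and MBP build compact myelin, periaxin links the outer Schwann cell membrane to the basal lamina, and MAG sits on the inner membrane that faces the axon. S100B is a calcium-binding protein of glia, and NGFR and GFRA3 are receptors for neurotrophins and for the ligand artemin, found on immature and non-myelinating Schwann cells and on neurons. In the mammary gland, nerve fibres run with vessels and reach the nipple skin.

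The 8 genes were first set beside markers of myelinating glia. TPM is a level scaled by transcript length and library size, so it can be compared between genes. All 14 other myelin and myelinating Schwann cell genes were in the tables, 11 of them averaging 1 TPM or more, and they summed to 262 TPM in replicate 1 and 220 TPM in replicate 2. Most markers of oligodendrocytes, the myelinating cells of the brain, were at or near 0. Of 10 such genes 5 had 3 fragments or fewer in both replicates, the floor of detection used here. They were Mog (3 and 1 fragments), Nkx2-2 (0 and 3), and Omg, Opalin and Ermn, each with 0 in both, which allows up to 3 fragments in each library. Cldn11, also expressed outside the nervous system, was the highest at 4.96 and 10.02 TPM. Genes of the neuronal cell body and axon were low, as only Uchl1 (3.72 and 6.02 TPM), Stmn2 (1.75 and 1.17 TPM) and Tubb3 (1.01 and 1.40 TPM) of 14 reached a mean of 1 TPM. Fewer Schwann cells and less RNA per Schwann cell cannot be told apart in such bulk tissue.

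Several of the 8 genes are also made by other cells of this tissue. Adipocyte markers summed to 4390 TPM in replicate 1 and 4989 TPM in replicate 2, fibroblast markers to 1948 and 1664 TPM, endothelial markers to 549 and 514 TPM, B cell markers to 367 and 635 TPM, T cell markers to 148 and 217 TPM, myoepithelial markers to 669 and 553 TPM, and perineurial markers to 60.3 and 83.5 TPM. Melanocyte markers were low, at 3.82 and 1.63 TPM in sum, with Pmel at 1.70 and 0.95 TPM, Dct at 1.07 and 0.33 TPM, Mlana at 0.96 and 0.32 TPM, and Tyrp1 with 2 and 0 fragments. Skeletal muscle genes set the libraries apart: the 7 markers summed to 27168 TPM in replicate 1 and 12.2 TPM in replicate 2, and each of the 7 lay more than 2-fold apart. Mitochondrially encoded genes took 17.8% of gene TPM in replicate 1 and 4.34% in replicate 2.

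Promoter sequences are shown for Pmp22 and Egr2, since the transcript data below differ by start site. They come from RefSeq on GRCm38.p6, are read 5′ to 3′ on the strand of the gene and cover the 250 bases before a start. Starts of 6 of the 8 genes were used, 15 in all. Mbp and Gfra3 were left out, so their promoters were not searched and the counts below do not cover them. Capitals mark a match to the CArG box, the binding motif of serum response factor, which drives immediate early genes. The most upstream Pmp22 start is that of Pmp22-204, the next lies 55 bases before the annotated start of Pmp22-201, and the last shown is that of Pmp22-203. The Egr2 start shown is that of Egr2-201. None of the windows used ends at the annotated start of Pmp22-202, Egr2-206 or Egr2-203, so the windows do not cover those models.
Pmp22 before the start of Pmp22-204, chr11:63128732-63128981, plus strand: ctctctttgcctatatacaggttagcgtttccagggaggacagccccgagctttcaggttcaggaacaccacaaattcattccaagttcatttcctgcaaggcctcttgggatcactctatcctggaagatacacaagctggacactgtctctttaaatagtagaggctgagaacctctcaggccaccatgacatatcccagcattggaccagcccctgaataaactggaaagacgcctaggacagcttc
Pmp22 before the start near Pmp22-201, chr11:63131207-63131456, plus strand: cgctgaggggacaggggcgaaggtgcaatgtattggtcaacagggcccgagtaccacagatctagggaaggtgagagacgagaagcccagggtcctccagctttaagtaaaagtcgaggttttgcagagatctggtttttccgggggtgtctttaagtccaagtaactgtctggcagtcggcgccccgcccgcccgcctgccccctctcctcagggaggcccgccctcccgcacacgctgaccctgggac
Pmp22 before the start of Pmp22-203, chr11:63132319-63132568, plus strand: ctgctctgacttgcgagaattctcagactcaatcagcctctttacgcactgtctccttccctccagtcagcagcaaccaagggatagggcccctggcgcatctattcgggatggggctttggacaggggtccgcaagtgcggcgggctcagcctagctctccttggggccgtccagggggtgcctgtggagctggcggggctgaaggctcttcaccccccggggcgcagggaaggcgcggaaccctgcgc
Egr2 before the start of Egr2-201, chr10:67537619-67537868, plus strand: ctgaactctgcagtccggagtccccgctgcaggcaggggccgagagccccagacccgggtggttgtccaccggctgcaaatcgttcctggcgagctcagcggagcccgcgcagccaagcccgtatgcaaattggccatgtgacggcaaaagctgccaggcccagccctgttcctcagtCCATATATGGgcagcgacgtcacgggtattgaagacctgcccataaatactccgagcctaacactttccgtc

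The 3 Pmp22 windows differed in base composition, at 48.8%, 61.2% and 64.8% GC in the order shown. The CArG box was searched as a pattern that reads the same on both strands. It was present in 4 of the 5 Egr2 windows, of which 3 overlap and hold the same box, so that 2 boxes are distinct. In the one printed it begins 72 bases before the start of Egr2-201, and 1.47% of 32817 RefSeq promoter windows of the same length hold one. The EGR motif, GCGTGGGCG or GCGGGGGCG on either strand, had no match in the 15 windows and is present in 3.06% of all windows. The SOX motif, ACAAAG or ACAATG on either strand, matched in 2 overlapping windows of Mag and is present in 25.2% of all windows. The motifs do not overlap each other in these windows. A match describes letters and no binding was measured.

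The levels of the 8 genes spanned the range from Pmp22, ranked 655 of 13272 protein-coding genes with a mean of at least 1 TPM, to Gfra3, ranked 10819. Pmp22, a tetraspan protein of compact myelin that fibroblasts and endothelium also express (chromosome 11, 63128982 to 63159547), had 172 TPM in replicate 1 and 194 TPM in replicate 2, averaging 183 ± 15.6 TPM (SD, n = 2). Mbp, which binds the inner faces of the myelin membrane (chromosome 18, 82475146 to 82585637), had 75.5 and 66.9 TPM, averaging 71.2 ± 6.04 TPM. The EGR2 gene (chromosome 10, 67535475 to 67542188) had 32.3 and 40.6 TPM, averaging 36.5 ± 5.85 TPM. These 3 genes kept their order in both libraries, and their ranges over the replicates did not overlap.

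The other 5 genes lay below 15 TPM. Ngfr, the low-affinity neurotrophin receptor (chromosome 11, 95568818 to 95587735), stood at 5.39 TPM in replicate 1 and 14.2 TPM in replicate 2, averaging 9.80 ± 6.24 TPM (SD, n = 2). S100b (chromosome 10, 76253853 to 76261159) stood at 10.3 and 1.97 TPM, averaging 6.12 ± 5.87 TPM. Prx, the periaxin gene (chromosome 7, 27499324 to 27520214), stood at 6.14 and 6.48 TPM, averaging 6.31 ± 0.24 TPM. The ranges of Ngfr, S100b and Prx overlapped, so their order is not fixed by these data, and S100b in replicate 2 was the lowest value of any of the 8 genes. Mag (chromosome 7, 30899176 to 30914873) stood at 3.78 and 3.64 TPM, averaging 3.71 ± 0.099 TPM. Gfra3, the artemin co-receptor (chromosome 18, 34689898 to 34720387), stood at 3.34 and 3.77 TPM, averaging 3.555 ± 0.304 TPM. Mag and Gfra3 did not differ beyond their replicate ranges. The S100b range, from 1.97 to 10.3 TPM, took in both, so the order of S100b against them is not fixed either.

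**Figure D1:**
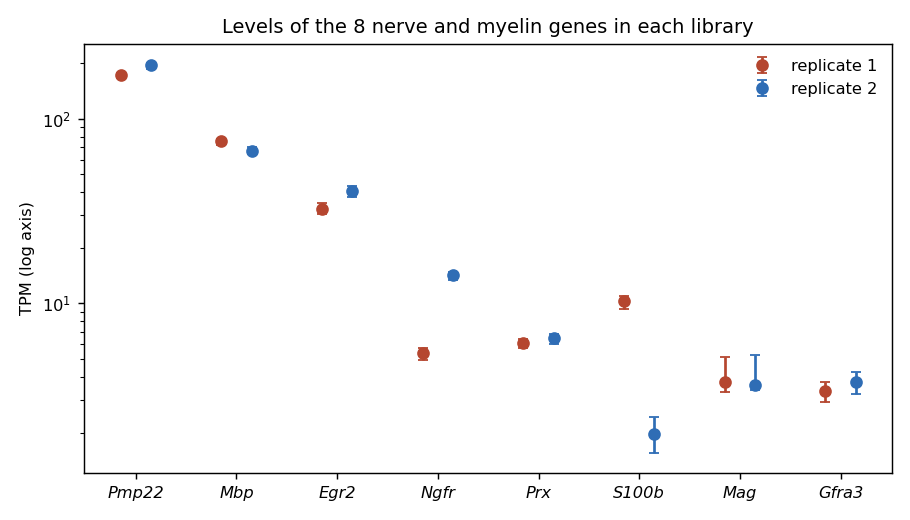
TPM of the 8 genes (log axis) in replicate 1 (left point of each pair) and replicate 2 (right point), with bars for the interval deposited with each value. Pmp22, Mbp and Egr2 stand apart from the other 5 genes, and S100b and Ngfr show the widest gaps between the libraries.

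Between the libraries 6 of the 8 genes stayed within 2-fold and 2 lay wholly beyond it, S100b higher and Ngfr lower in replicate 1. The call rests on the expected counts scaled by total counts: a gene is called where the whole 95% Clopper-Pearson interval of its ratio is beyond 2-fold. Over all 14510 genes that averaged 1 TPM or more, the same call was made for 18.2%, with 9.43% higher and 8.73% lower in replicate 1. Set against that background, a count of 2 of 8 is not read as a result about these genes. The median log2 TPM difference of the 8 genes, replicate 1 minus replicate 2, was -0.12, against -0.05 for all genes tested. The median log2 count ratio was -0.032, against 0.06 for all genes tested.

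S100b had 564 fragments in replicate 1 and 77 in replicate 2. The scaled ratio of replicate 1 over replicate 2 was 5.51-fold, with an interval of 4.34 to 7.09, or 2.46 on the log2 scale. It was the only one of the 8 genes beyond 2-fold with the GC trend between the libraries removed, at 2.15 on the log2 scale (1.80 to 2.51). That call was made for 11.7% of all genes tested, 4.8% higher and 6.86% lower in replicate 1. S100b is also made by melanocytes and adipocytes. The muscle markers (27168 and 12.2 TPM) and melanocyte markers (3.82 and 1.63 TPM) summed higher in replicate 1. The adipocyte markers did not move one way: they summed to 4390 and 4989 TPM, while 4 of the 7 had a log2 count ratio above 0, with a median of 0.52. The part of these cells in the S100b difference was not tested. The span of S100b overlaps Dip2a on the opposite strand, at 10.9 and 14.96 TPM, and whether counting used the strand is not given in the sources used here.

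Ngfr had 752 fragments in replicate 1 and 1412 in replicate 2. Its log2 count ratio was -1.32 (interval -1.45 to -1.19). With the GC trend removed it was -0.63 (-0.76 to -0.50), still lower in replicate 1 and no longer beyond 2-fold. The transcript of Ngfr is 58.6% GC, the highest of the 8 genes, and the median log2 count ratio over protein-coding genes ranged from 1.00 in the lowest of 20 GC bins to -1.09 in the highest. Myoepithelial cells express Ngfr too, and their markers summed to 669 TPM in replicate 1 and 553 TPM in replicate 2. Most of that sum was Acta2, at 476 and 353 TPM. The 6 markers did not move one way: 4 had a log2 count ratio above 0 and 2 below it, with a median of 0.18. The part of these cells in the Ngfr difference was not tested. Egr2 had 1552 fragments in replicate 1 and 2059 in replicate 2, a log2 count ratio of -0.82 (-0.91 to -0.72), and -0.86 (-0.95 to -0.76) with the trend removed. Egr2 was lower in replicate 1 by both of these ratios, within 2-fold. Scaled by spike-in totals its log2 count ratio was -1.58, beyond 2-fold. With TPM rescaled without mitochondrial and muscle genes, Egr2 stood at 41.7 TPM in replicate 1 and 43.1 TPM in replicate 2. The size of its difference thus depends on the scaling.

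Pmp22, Mbp and Prx differed little by counts. Pmp22 had 6613 and 4710 fragments, a log2 count ratio of 0.080 (0.026 to 0.13), while its TPM was lower in replicate 1. With the GC trend removed the Pmp22 ratio was -0.22 (-0.28 to -0.17), and with DESeq2 size factors it was -0.050, so its direction is not fixed. Mbp had 6595 and 4875 fragments, a ratio of 0.026 (-0.027 to 0.080), and -0.029 (-0.082 to 0.025) with the GC trend removed. Prx had 1348 and 987 fragments, a ratio of 0.040 (-0.080 to 0.16). Once the GC trend was removed, Prx, Mag and Gfra3, at 57.1% to 57.7% GC, had intervals above 0: Prx at 0.63 (0.51 to 0.75), Mag at 0.37 (0.10 to 0.64) and Gfra3 at 0.43 (0.16 to 0.70). Before that correction Mag, with 244 and 213 fragments, stood at -0.21 (-0.48 to 0.058), and Gfra3, with 257 and 206 fragments, at -0.091 (-0.36 to 0.18). Mag and Gfra3 thus changed sign with the GC trend removed, and Prx was below 0 with TMM scaling (-0.033) and with DESeq2 size factors (-0.090).

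**Figure D2:**
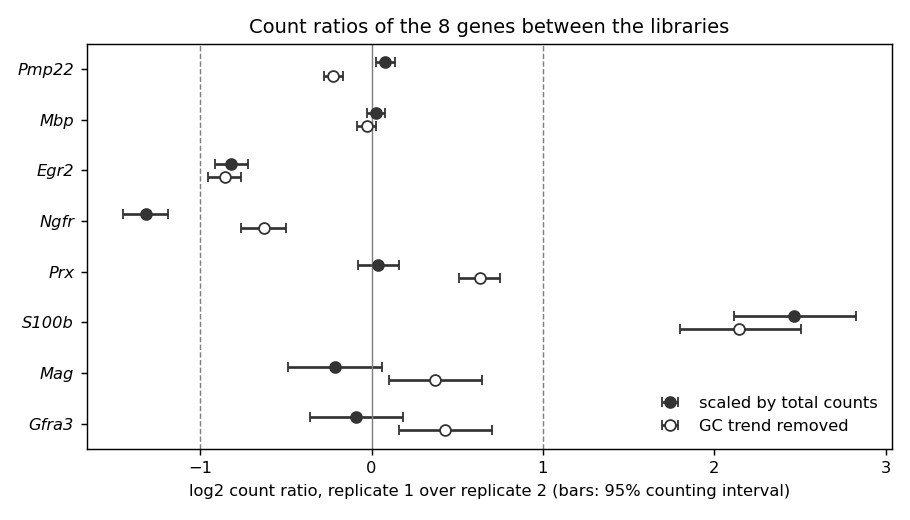
The log2 count ratio of replicate 1 over replicate 2 for each gene, scaled by total counts (filled) and with the GC trend removed (open), with 95% counting intervals and dashed lines at 2-fold. S100b lies beyond 2-fold both ways, at 2.46 and 2.15, and Ngfr only before the trend is removed, at -1.32 and -0.63.

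**Figure D3:**
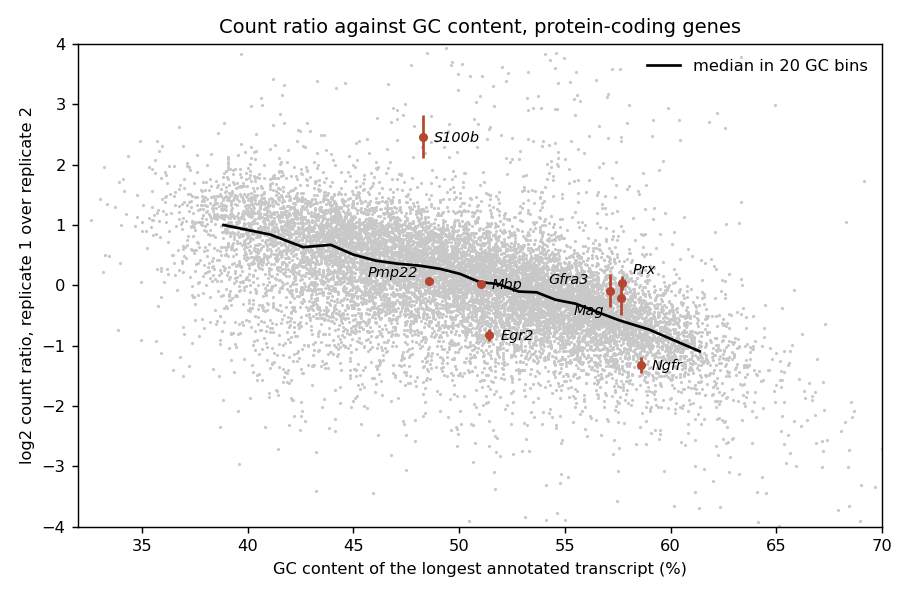
The log2 count ratio of replicate 1 over replicate 2 against the GC content of each gene's longest annotated transcript, for protein-coding genes with a mean of at least 1 TPM (grey, with values outside the axes not drawn), the median in 20 GC bins (line) and the 8 genes (red, with 95% counting intervals). The median runs downward with GC content, with Ngfr and Egr2 below it, Prx, Mag and Gfra3 above it, Mbp near it and S100b far above it.

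The 8 genes had 43 transcripts in the tables. Ngfr, S100b and Gfra3 had 1 each, and the other 5 genes had 40, of which 12 had no expected fragment in either replicate. Intervals deposited with the transcript TPM did not overlap between the libraries for 8 of the 40. Coordinates and exon content come from GENCODE M21, and 36 of the 43 transcripts have the same length there as in the tables.

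Pmp22 is known to be read from more than one promoter, the most upstream being favoured by myelinating Schwann cells and the others by non-neural cells. All 4 of its coding models encode the same 160 codons and differ in the first exon and in the length of the last. Pmp22-204, from the most upstream start, stood at 36.3 TPM in replicate 1 and 21.4 TPM in replicate 2, or 21.1% and 11.04% of the gene. Pmp22-201 stood at 23.0 and 28.0 TPM, or 13.4% and 14.4%. Pmp22-203 stood at 29.9 and 2.39 TPM, or 17.4% and 1.23%. Pmp22-202, whose first exon runs straight into the first coding exon, was the highest by TPM, at 82.0 and 140.4 TPM, or 47.7% and 72.3%. The deposited intervals of all 4 models lay apart between the libraries, with Pmp22-204 and Pmp22-203 higher in replicate 1 and Pmp22-201 and Pmp22-202 lower. By fragments, which favour long models, Pmp22-204 took 38.1% in replicate 1 and 22.5% in replicate 2, and Pmp22-202 took 28% and 47.5%. The order of these models in replicate 1 thus depends on the measure. Pmp22-202 and Pmp22-203 are annotated at 733 and 723 bases, against 1800 and 1822 for the other 2 coding models, so their TPM is set by a short stretch. This mix also gave the gene a mean length of 1102 bases in replicate 1 and 1004 in replicate 2, and its TPM and its counts pointed in opposite directions.

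Mbp produces classic transcripts, which encode the myelin proteins, and golli transcripts from a start far upstream, which lymphocytes and neurons also make. Transcripts from the golli start summed to 12 TPM in replicate 1 and 17 TPM in replicate 2, or 15.9% and 25.4% of the gene, most of it Mbp-205 at 10.99 and 15.7 TPM, whose deposited intervals lay apart. By fragments the golli start took 33.9% and 46.6%. The last exon of Mbp-205 (4797 bases in all) runs over the first classic exon and on into the following intron, so unspliced RNA there would be counted with it. Golli transcripts that continue into the last classic exons had 0 fragments in both libraries. The T cell markers summed to 148 and 217 TPM and the B cell markers to 367 and 635 TPM, with 3 of 7 and 2 of 6 log2 count ratios above 0. Their part in the golli share was not tested.

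Among the classic transcripts, those that lack both a 26-codon exon and a 41-codon exon led. Mbp-211, the main such form with 128 codons, stood at 45.1 TPM in replicate 1 and 32.8 TPM in replicate 2, or 59.7% and 49.0% of the gene, and its deposited intervals lay apart. Forms with the 26-codon exon (chromosome 18, 82561778 to 82561855) summed to 14.7 and 13.3 TPM, or 19.5% and 19.9%. Forms with the 41-codon exon (chromosome 18, 82578936 to 82579058) summed to 10.1 and 5.77 TPM, or 13.4% and 8.62%. Mbp-215, which has the first of these exons and 154 codons, stood at 7.59 and 11.4 TPM. Mbp-212, which has the other and 169 codons, stood at 1.12 and 3.83 TPM. Mbp-209, which has both and 195 codons, stood at 7.11 and 1.94 TPM and counts in both sums. The deposited intervals of Mbp-215, Mbp-212 and Mbp-209 overlapped between the libraries, so no difference is read from them.

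Prx gives a long and a short periaxin by keeping or splicing an intron of 592 bases (chromosome 7, 27515448 to 27516039). Prx-203, which keeps it and encodes 148 codons, stood at 5.27 TPM in replicate 1 and 4.66 TPM in replicate 2, or 85.7% and 72.0% of the gene. Prx-201, which splices it and encodes 1391 codons, stood at 0.88 and 1.81 TPM, or 14.3% and 28.0%. The deposited intervals of both forms overlapped between the libraries. The form that keeps the intron thus held the larger share in both, and unspliced RNA cannot be told apart from it. A non-coding antisense gene, Gm15541, overlaps Prx on the other strand, at 0.24 and 0.23 TPM.

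Mag makes a large and a small form, which differ in the part of the protein inside the cell. Mag-207, with 627 codons, stood at 1.29 TPM in replicate 1 and 1.61 TPM in replicate 2, or 34.0% and 44.2% of the gene. The forms with 582 codons, Mag-201 and Mag-203, summed to 1.21 and 1.61 TPM, or 31.9% and 44.2%, and begin at different starts. All of that sum was assigned to Mag-203 in replicate 1 and to Mag-201 in replicate 2, with deposited intervals that overlapped for both. Incomplete or non-coding models took the rest, led by Mag-205 at 1.01 and 0.00 TPM, with Mag-202 at 0.10 and 0.21 TPM and Mag-208 at 0.00 and 0.21 TPM. With 244 and 213 fragments for the whole gene, no difference in form was detectable at this depth.

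By TPM the highest Egr2 model was an incomplete one. Egr2-206, which begins upstream of the main start and ends inside the coding region (902 bases, 281 codons), stood at 25.0 TPM in replicate 1 and 18.1 TPM in replicate 2, or 77.4% and 44.5% of the gene. Egr2-203, which reaches the 3′ end and lacks the first coding exon, stood at 1.30 and 15.6 TPM, or 4.03% and 38.5%. Egr2-201, the full form of 470 codons whose promoter is printed above, stood at 5.60 and 5.14 TPM, or 17.3% and 12.7%. In replicate 2 the deposited intervals of Egr2-206 and Egr2-203 overlapped each other, and by fragments Egr2-203 led with 1178, against 382 for Egr2-206, so their order there is not fixed. Between the libraries the intervals lay apart for Egr2-206 and Egr2-203 and overlapped for Egr2-201. By fragments the models that reach the 3′ end took 51.7% in replicate 1 and 80.4% in replicate 2. The mean transcript length given for Egr2 was 1323 bases in replicate 1 and 1864 in replicate 2, so the gap between the libraries is smaller in TPM than in counts.

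**Figure D4:**
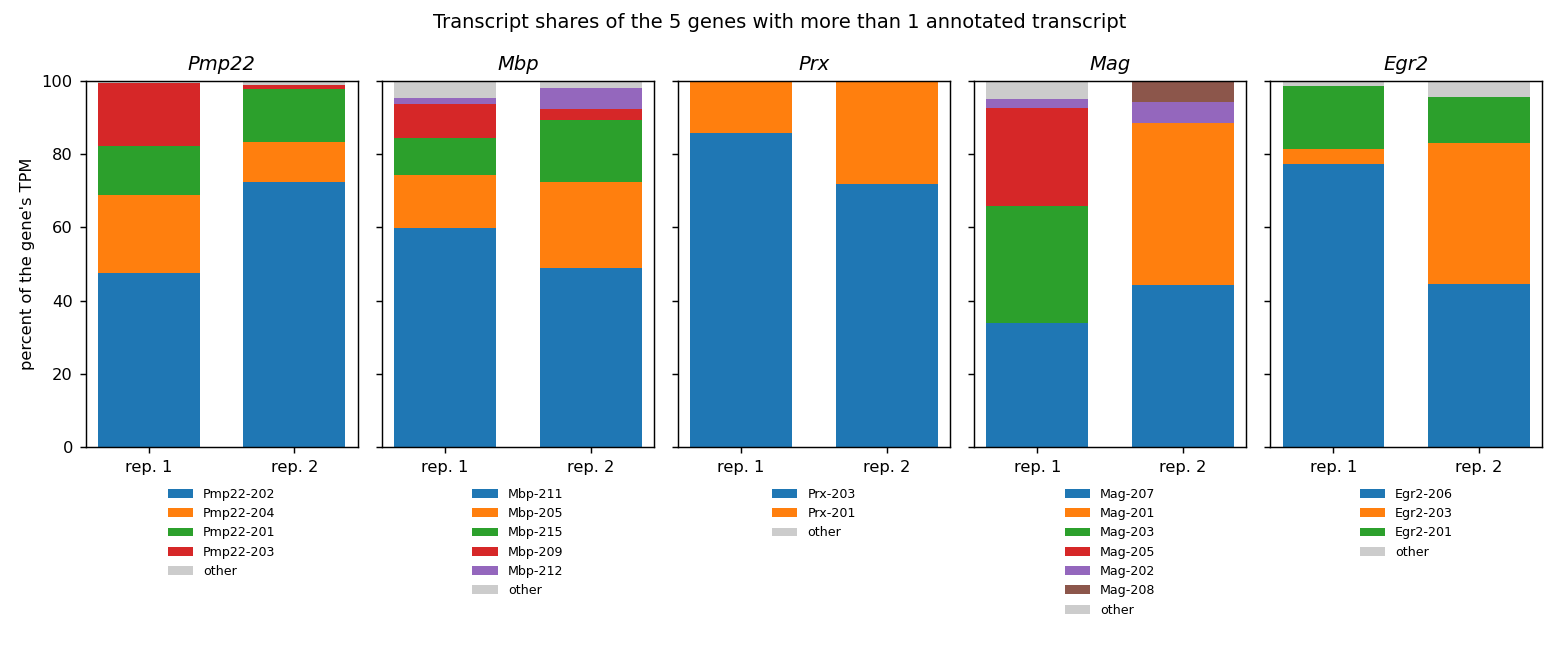
Percent of each gene's TPM assigned to each transcript in replicate 1 (left bar) and replicate 2 (right bar) for the 5 genes with more than 1 annotated transcript, with transcripts under 5% in both libraries grouped as other. Pmp22-202 takes 47.7% and 72.3%, Mbp-211 59.7% and 49.0%, Prx-203 85.7% and 72.0%, and Egr2-206 77.4% and 44.5%.

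The other myelin genes had a median log2 count ratio of 0.65 over 11 genes, against 0.06 for all genes tested. With the GC trend removed their median log2 count ratio was 0.56, beside 0.17 for the 8 genes and 0.0093 for all genes tested. Their median log2 TPM difference was 0.24 before that correction, beside -0.12 for the 8 genes. It was 0.36 after it, beside 0.33 for the 8 genes and 0.011 for all genes tested. The values of the 8 genes lay on both sides of 0. Of the 11, 3 lay beyond 2-fold higher in replicate 1 and 1 lower, against 9.43% and 8.73% of all genes, and those given here were named after their values were seen. They include Fa2h, which hydroxylates myelin fatty acids, at 9.41 and 3.04 TPM, Drp2, a periaxin partner in the membrane, at 6.83 and 3.24 TPM, and Gjb1, the connexin of Schwann cell gap junctions that epithelium also expresses, at 1.24 and 7.46 TPM. Gjb1 was the gene lower in replicate 1, with 73 and 306 fragments. With the GC trend removed, Fa2h was beyond 2-fold higher and Gjb1 lower, and Drp2 was not called. Among the highest members were Cnp at 31.7 and 59.2 TPM and Pllp at 13.7 and 14.3 TPM. Muscle markers were higher in replicate 1 as well, and their part was not tested.

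Genes of the Schwann lineage and of non-myelinating Schwann cells had a median log2 count ratio of -0.14 over the 6 of 12 that averaged 1 TPM or more. With the GC trend removed that median was 0.12, so its sign is not fixed. Plekhb1 stood at 59.0 TPM in replicate 1 and 70.3 TPM in replicate 2. Sox10, the lineage factor that mammary epithelium also expresses, stood at 36.8 and 55.2 TPM. The neuregulin receptor gene Erbb3, likewise shared with epithelium, stood at 17.2 and 16.9 TPM. Scn7a, a sodium channel of non-myelinating Schwann cells, was the 1 of 6 beyond 2-fold, against 18.2% of all genes, at 13.1 and 5.42 TPM, and removing the GC trend left a log2 count ratio of 0.45.

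Regulators around EGR2 were below 0 in log2 count ratio for 7 of the 11 that averaged 1 TPM or more. Of these, 4 lay beyond 2-fold lower in replicate 1 and 0 higher, against 8.73% and 9.43% of all genes, and with the GC trend removed 3 were lower. Egr1 stood at 24.9 TPM in replicate 1 and 78.9 TPM in replicate 2, and Nab2, a corepressor that binds EGR proteins, at 19.2 and 47.7 TPM. The other 2, named after their values were seen, were Egr3 at 11.3 and 45.9 TPM and Yy1, a zinc finger factor, at 5.45 and 42.7 TPM. Zeb2, which relieves repression in myelinating Schwann cells, stood at 40.9 and 23.3 TPM. Its log2 count ratio was 0.41 by total counts and -0.46 once the GC trend was removed. Pou3f2 had 1 and 3 fragments. EGR2 is also an immediate early gene, and the 10 immediate early genes summed to 226 TPM in replicate 1 and 529 TPM in replicate 2. In replicate 1, 5 of the 10 lay beyond 2-fold lower, against 8.73% of all genes. They were Junb (36.9 and 185 TPM), Jun (25.8 and 63.5 TPM), Ier2 (7.43 and 30.7 TPM), Egr1 and Egr3. The rest lay within 2-fold, among them Dusp1 at 61.8 and 60.7 TPM. Of the 10 log2 count ratios, 8 were below 0 and 2 above, with a median of -0.84. With the GC trend removed, Junb, Egr1 and Egr3 were past 2-fold lower, against 6.86% of all genes. Egr2 moved in the direction of the median of this list, and the part of such a response in its value was not tested.

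Genes of the signalling around GFRA3 and NGFR, all but Pspn, were above the floor of 3 fragments in 1 library or both. Artn, which encodes artemin, the ligand of GFRA3, stood at 0.27 TPM in replicate 1 and 1.03 TPM in replicate 2, with 17 and 46 fragments, and Ret, the shared signalling receptor, at 1.49 and 2.04 TPM. The highest of the 8 GDNF family genes were Gfra4 at 13.97 and 38.4 TPM, the ligand gene Nrtn at 9.36 and 41.3 TPM, and Gfra2 at 10.2 and 18.4 TPM. Nrtn was the 1 of 5 tested that lay beyond 2-fold, against 18.2% of all genes, lower in replicate 1, at -2.06 on the log2 scale and -0.96 with the GC trend removed, and Pspn had 2 fragments in each. The highest of 12 genes of neurotrophin signalling were Maged1, an NGFR-binding protein, at 166 and 225 TPM, the NGFR co-receptor Sort1 at 88.2 and 76.9 TPM, and Ntrk2 at 42.4 and 38.7 TPM. Rtn4r, which signals with NGFR, stood at 6.58 and 15.8 TPM. It was lower in replicate 1 beyond 2-fold, as Ngfr was, and neither was beyond 2-fold with the GC trend removed.

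**Figure D5:**
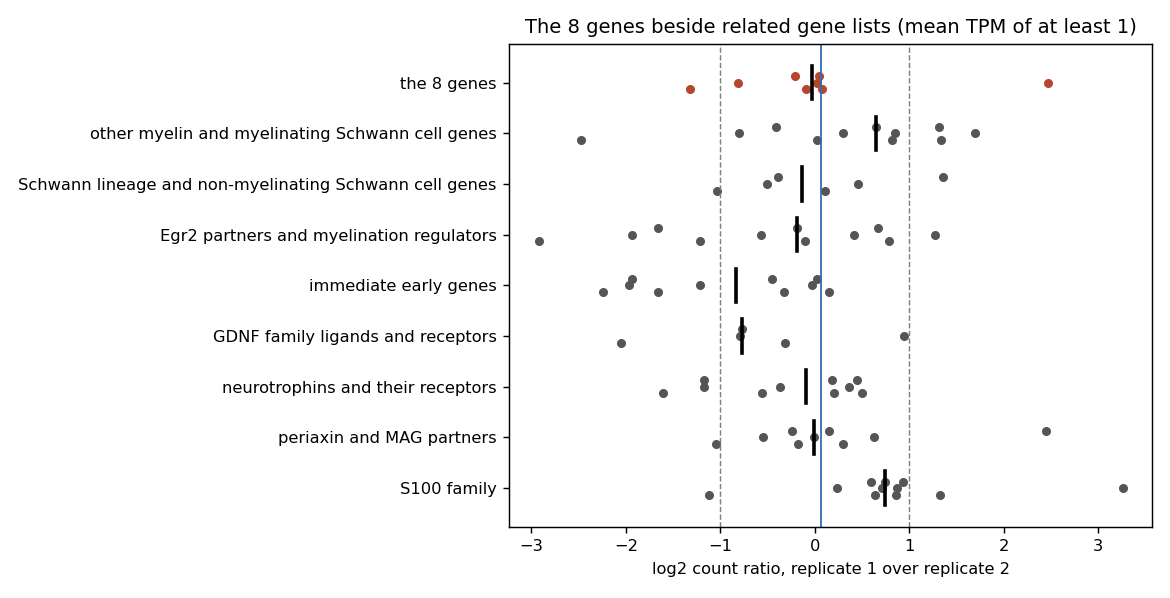
The log2 count ratio of replicate 1 over replicate 2 for the 8 genes (red) and for related gene lists (grey), for genes with a mean of at least 1 TPM, with black bars at each list's median, a blue line at the median of all genes tested (0.06) and dashed lines at 2-fold. The 8 genes have a median of -0.032, the other myelin genes 0.65 and the immediate early genes -0.84.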

How the data were processed

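The 2 libraries are stranded, paired-end reads of 76 nt from poly(A) RNA over 200 nt, per the labels. Expected counts, TPM, FPKM and isoform percent were used as deposited by the authors, quantified on mm10 with GENCODE M4 per the text notes beside the tables. Neither aligner, quantifier nor the level of the TPM intervals is given in the sources used here. Coordinates and transcript structure were read from GENCODE M21, also on mm10. Left out of totals were 26248 entries named by numbers, which hold no counts, and 97 spike-in entries. Contigs and junctions on mm9 were not used here.

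Count ratios used rounded expected counts scaled by total counts with 95% Clopper-Pearson intervals. These cover counting error only, and the spread between 2 libraries may be technical. Log2 TPM differences used a pseudocount of 0.1. The GC trend was the median ratio in 20 bins of transcript GC content, subtracted with end values held. Genes needed a mean of 1 TPM to be tested, and the floor was 3 fragments. The members and lists were chosen with earlier results of these data known. The naming rule takes the 8 genes with transcripts of at least 5%, and of each list the 3 highest genes, those at the floor in both libraries and those beyond 2-fold where 3 or fewer. Lists of adipocyte, fibroblast, endothelial, lymphocyte, myoepithelial, perineurial and muscle markers are given as lists, and of their genes only Acta2 is named. Some genes that the rule names are not reported here. Scaling alternatives came from edgeR 4.0.16 (TMM), DESeq2 1.42.0 and spike-ins, in R 4.3.3. The remaining steps ran in Python 3.11.15 with pandas 2.3.3 and numpy 2.4.6, intervals with scipy 1.17.1 and plots with matplotlib 3.10.9. The calls were checked on simulated counts that held planted changes and counting error only, so this check does not cover the spread between libraries.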

Additional observations from a re-analysis of the deposited data

How the results depend on the processing

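The count of genes wholly beyond 2-fold stayed at 2 (S100b and Ngfr) with TMM scaling, DESeq2 size factors and TPM without an interval. It was 3, with Egr2 added, with spike-in totals and with a 1.5-fold threshold, and 1 (S100b) with the GC trend removed. Dropping the filter could change neither this count nor the median below, since all 8 genes average at least 1 TPM. The median log2 TPM difference of -0.12 was 0.33 with the GC trend removed and 0.15 without mitochondrial and muscle genes, and lay between -0.13 and -0.032 under the other alternatives. The causes were not tested. Under spike-in totals every ratio is lower by 0.76 on the log2 scale, and S100b alone stayed above 0, at 1.70. Leaving out each replicate gives the TPM of the other. The transcript highest by TPM was then the same for Pmp22, Mbp, Prx and Egr2, and for Mag it was Mag-201 without replicate 1 and Mag-207 without replicate 2. No paired analysis was possible because the labels give 1 group. Depth limits Mag, Gfra3 and S100b most, with 77 to 564 fragments a library.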

Other observations

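Partners of periaxin and MAG were all expressed. The 9 genes had a median log2 count ratio of -0.0074, replicate 1 over replicate 2, led by Rtn4 at 125 TPM in both replicates, Siglec1, a relative of Mag made by macrophages, at 57.6 and 72.0 TPM, and the dystroglycan gene Dag1, which anchors periaxin complexes to the basal lamina, at 56.7 and 66.2 TPM. Mapt, the microtubule protein tau, was the 1 of 9 wholly beyond 2-fold, against 18.2% of all genes, at 4.78 TPM in replicate 1 and 0.88 TPM in replicate 2. Its log2 count ratio was 2.45 (2.17 to 2.73), and 2.51 with the GC trend removed. Fyn, a kinase that acts downstream of MAG, stood at 26.9 and 41.3 TPM and was past 2-fold lower with the trend removed, and it was named after its values were seen.

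In the S100 family list, 10 of 11 log2 count ratios were above 0, against 7654 of 14510 over all genes tested, and the median was 0.75, against 0.06. The ratio below 0 was that of Ager, a receptor for S100 proteins, at 2.63 TPM in replicate 1 and 6.40 TPM in replicate 2. S100a6 stood at 639 TPM in replicate 1 and 415 TPM in replicate 2, S100a11 at 326 and 191 TPM, and S100a1 at 255 and 151 TPM. The neutrophil gene S100a8 was the 1 of 11 wholly beyond 2-fold, against 18.2% of all genes, with 51 and 4 fragments. S100g had 0 and 2 fragments and S100a5 had 0 in both. The catecholamine enzyme gene Th, a mark of sympathetic fibres, had 74 fragments in replicate 1 and 0 in replicate 2, while Dbh, the next enzyme of noradrenaline synthesis that such fibres share, had 4 and 0. Th and Dbh were named after their values were seen. The axonal genes Nefm, Scn9a and Scn10a had 3 fragments or fewer in each library. Among oligodendrocyte markers Olig1 stood at 0.21 and 1.04 TPM and Hapln2 at 0.08 and 0.43 TPM.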
